A study of Homo sapiens with 4 samples.

Results

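The 45 genes described here encode the proteins that load, start and drive the DNA replication fork. They were taken by name from the known make-up of the complexes, from the origin recognition complex to the ligase that joins Okazaki fragments, and were found among the 58226 Ensembl gene IDs of the files through their GENCODE 29 symbols. All 45 were matched and all 45 were measured in each comparison, a gene being measured when its mean was at least 1 CPM (counts per 1000000 counts of the library). They lie on 18 chromosomes, and their counts ran from 17 (POLE2 in U87MG si-LINC00461) to 5864 (MCM4 in R-U87MG si-NC).

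Human U87MG, an established glioblastoma cell line, and R-U87MG, a derivative selected for resistance to the alkylating drug temozolomide (TMZ) and kept in 50 µM TMZ, were studied by RNA-seq. The resistant cells were transfected with a non-targeting siRNA (si-NC) or with si-HDAC6, the parental cells with si-NC or with si-LINC00461, and RNA was taken 72 h later. HDAC6 is a largely cytoplasmic deacetylase and LINC00461 is a long non-coding RNA. There was 1 library per condition, so the values have no replicate error and no test was possible. The intervals below are exact 95% Clopper-Pearson intervals of the split of counts between a pair of libraries and cover counting error only. A gene was called lower or higher when its ratio passed 2-fold.

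In G1, ORC marks origins, and CDC6 and CDT1 use it to load the ring of MCM2 to MCM7 onto DNA, a step that geminin (GMNN) blocks later in the cycle. In S phase the kinase CDC7 with DBF4, together with MCM10, helps to turn the loaded ring into the active CMG helicase, which is CDC45, MCM2-7 and GINS. Polymerase α-primase then starts each strand, polymerases ε and δ extend them, RFC loads the PCNA clamp, RPA covers single strands, and FEN1 and LIG1 finish Okazaki fragments. Many of these genes are transcribed as cells enter S phase under E2F factors. In bulk RNA a smaller share of replicating cells and less RNA per cell cannot be told apart.

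The 4 libraries held between 12596072 and 20027866 counts, at which 3 counts correspond to 0.150 to 0.238 CPM. The siRNA targets moved as labelled. In R-U87MG, HDAC6 had 296 counts with si-NC and 67 with si-HDAC6 (log2 ratio −1.74). In U87MG, LINC00461 had 363 counts with si-NC and 73 with its own siRNA (log2 ratio −2.12). LINC00461 itself went from 154 to 80 counts after si-HDAC6, a log2 ratio of −0.55 with an interval from −0.96 to −0.15. The glial and mesenchymal markers VIM, NES, CD44, FN1 and TNC had 441 counts or more in every library, whereas SOX2 had 0 to 4 counts. After si-LINC00461 their log2 ratios were −0.98 for VIM, −0.58 for TNC, 0.03 for NES, 0.12 for CD44 and 1.12 for FN1. Of the leukocyte, endothelial and hepatocyte markers, which a glioblastoma line should lack, PTPRC and CD3E had at most 3 counts and VWF at most 26. The endothelial marker PECAM1 went from 52 to 433 counts and the hepatocyte marker ALB from 272 to 470 after si-LINC00461, so neither was absent from U87MG. Whether these differences bear on the replication genes was not tested.

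The promoters of these genes were examined first, because E2F sites are a known feature of the group that the choice of members did not use. RefSeq windows of 300 bases (GRCh38.p14, 250 before to 50 after the transcription start) were found for 39 of the 45 genes. An E2F motif (TTTCCCGC, TTTGGCGC, TTTGCCGC or TTTCGCGC on either strand) was present in 20 of the 39 (51.3%), against 3.99% of 27305 genes with such a window. The letters CCAAT, read on either strand, were in 59.0% of these genes and in 39.7% of all. The cell cycle homology element TTTGAA or TTCGAA, associated with late cell cycle genes, was in 2 of them (5.13%, MCM6 and DBF4) and in 19.5% of all. The 27305 genes were not limited to genes measured here, and the shares were not adjusted for base composition. A match is a description of the letters and not a bound site. The 6 stretches below carry the E2F motif in capitals, with 20 bases to either side, all upstream of the RefSeq start. Among members with such an upstream motif, they belong to the 4 lowest and the 2 least lowered after si-LINC00461. The gene spans used elsewhere here can start at another base. By those spans, the stretches of GINS2, CDT1, RFC3 and GMNN lie inside the gene. The stretches of MCM6 and PCNA lie upstream of the gene by either start.
GINS2, chr16:85688958-85689005, minus strand: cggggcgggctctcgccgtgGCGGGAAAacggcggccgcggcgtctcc
CDT1, chr16:88803734-88803781, plus strand: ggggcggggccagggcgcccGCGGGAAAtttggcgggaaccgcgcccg
MCM6, chr2:135876502-135876549, minus strand: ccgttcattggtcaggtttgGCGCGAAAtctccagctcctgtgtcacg
RFC3, chr13:33818074-33818121, plus strand: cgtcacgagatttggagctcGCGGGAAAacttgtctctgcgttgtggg
PCNA, chr20:5126654-5126701, minus strand: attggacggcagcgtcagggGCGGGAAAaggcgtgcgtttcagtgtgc
GMNN, chr6:24775313-24775360, plus strand: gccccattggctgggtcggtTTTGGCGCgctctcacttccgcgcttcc

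After si-LINC00461 in U87MG, most of the replication machinery was lower, and the loaders CDC6 and CDT1, MCM10, CDC45 and most GINS subunits were among the lowest. Of the 45 genes, 26 were at least 2-fold lower and 0 were at least 2-fold higher. Among all 13210 genes measured, 8.17% were that much lower and 5.42% that much higher. The median log2 ratio was −1.20 for the replication genes and −0.00 for all genes measured. An interval wholly beyond 2-fold lower was found for 21 members (4.78% of all genes), and 8 members were at least 4-fold lower (1.74% of all genes). The interval lay wholly below 0 for 38 members (33.4% of all genes) and wholly above 0 for 2, ORC5 and RPA1 (33.1% of all genes). The summed level of the 45 genes went from 1807 to 917 CPM.

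**Figure D1:**
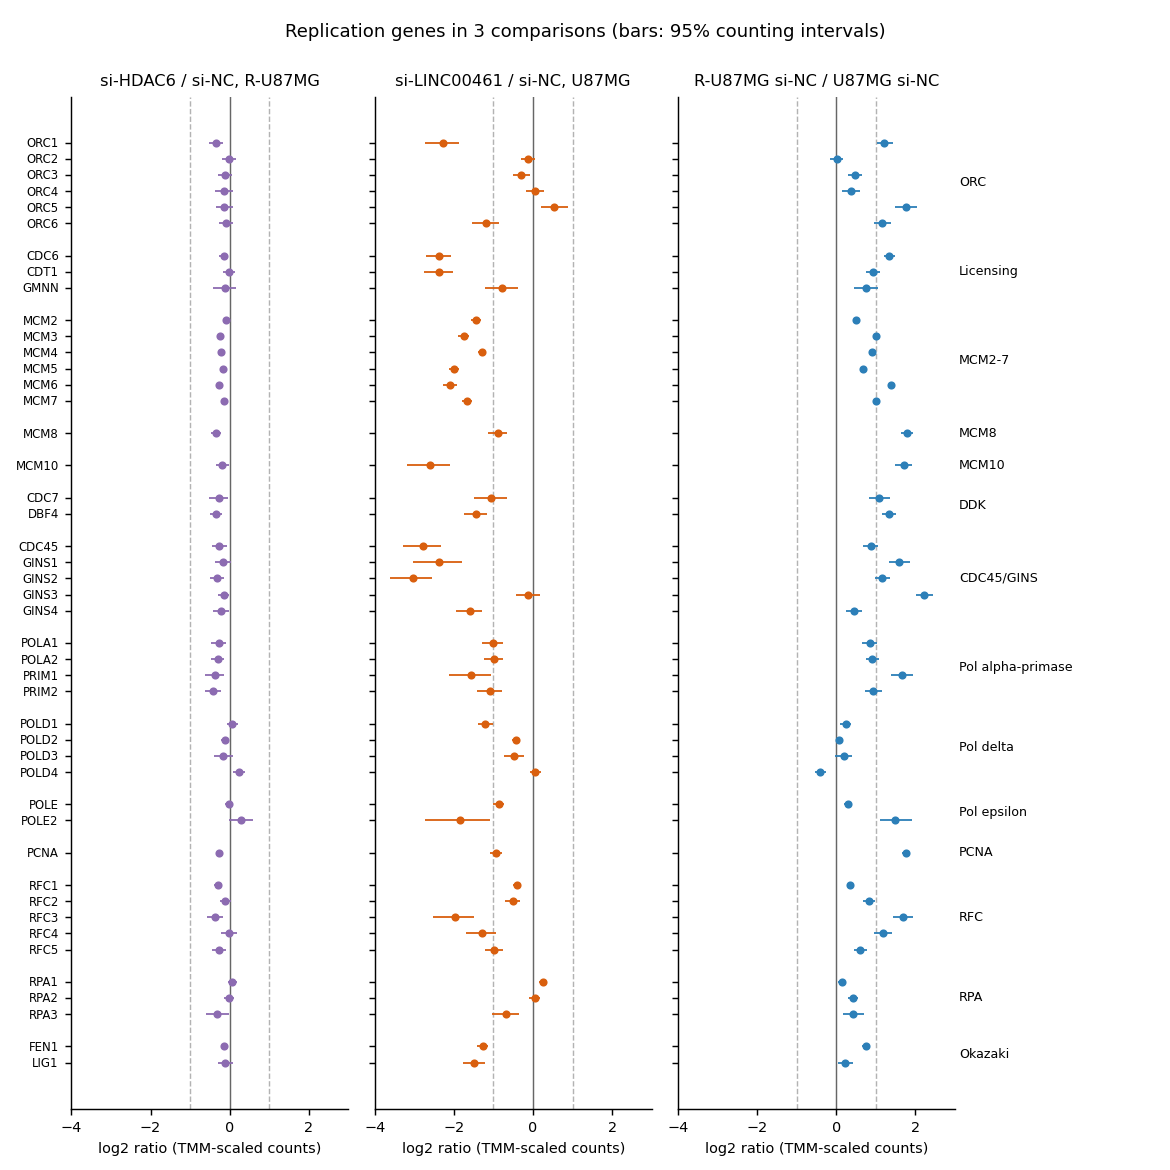
Log2 ratios (x axis, TMM-scaled counts plus 0.5) of the 45 genes, ordered by complex, in the 3 comparisons. Points are ratios of 1 library to another, bars are 95% counting intervals and dashed lines mark 2-fold; after si-LINC00461 the points of CDC45, GINS2 and MCM10 lie farthest left, whereas after si-HDAC6 no point passes 2-fold.

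Within ORC the subunits differed. ORC1, the subunit whose level is regulated in the cell cycle, had 686 counts in R-U87MG si-NC, 409 in R-U87MG si-HDAC6, 295 in U87MG si-NC and 53 in U87MG si-LINC00461. Its log2 ratio in the last pair was −2.28 (interval −2.74 to −1.86). ORC6 had 576, 411, 259 and 99 counts in the same order of libraries, which is kept below, and a log2 ratio of −1.20. These were the only ORC subunits past 2-fold. ORC5 had the highest ratio of the 45 genes, with 458, 317, 135 and 172 counts (log2 ratio 0.54, interval 0.20 to 0.87). In U87MG, ORC2 had 606 and 490 counts and ORC4 had 310 and 282, and the intervals of both ratios included 0. ORC3 was at −0.30.

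The loaders stood among the lowest. CDC6 (chr17:40287633-40304657, GRCh38) had 1578, 1085, 623 and 105 counts. CDT1, whose promoter stretch is printed above, had 813, 615, 428 and 72. Both ratios after si-LINC00461 were −2.38 on the log2 scale, a 5.19-fold lower level. GMNN, the inhibitor of CDT1, had 241, 169, 143 and 73 counts. Its log2 ratio was −0.78 (interval −1.21 to −0.37), above the interval of CDT1 (−2.77 to −2.02).

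All 6 subunits of the MCM2-7 ring were at least 2-fold lower after si-LINC00461, with log2 ratios from −2.10 (MCM6) to −1.30 (MCM4). MCM6 had 3721, 2344, 1425 and 292 counts, and MCM4 had 5864, 3866, 3122 and 1117. Both were lowest in U87MG si-LINC00461, as were the other ring genes. MCM5 had 4116, 2782, 2589 and 570 counts (3.99-fold lower) and MCM3 had 4292, 2736, 2132 and 558 (log2 ratio −1.75). MCM7, the host gene of the microRNA genes MIR25, MIR93 and MIR106B, had 4362, 3002, 2170 and 599 counts (−1.67). MCM2 had 3402, 2421, 2409 and 779 (−1.44). The summed level of the ring went from 691 to 220 CPM. None of the 6 intervals crossed −1.

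The ring holds its subunits in equal number, so their levels were also set side by side per kilobase of transcript. In U87MG si-NC the highest of the 6 (MCM4) was 2.59 times the lowest (MCM6), at 49.4 against 19.0 CPM per kilobase. After si-LINC00461 it was 4.53 times, at 19.9 against 4.40. The corresponding ratios were 1.98 in R-U87MG si-NC and 1.95 in R-U87MG si-HDAC6. With the union of exons as the length the ratios were 1.69 in U87MG si-NC and 2.26 after si-LINC00461. At that length they were 2.10 in R-U87MG si-NC and 1.98 in R-U87MG si-HDAC6. The size of the spread thus depended on which transcript length was used.

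MCM10 and the CDC45 and GINS subunits, which join the ring when origins fire, included the 3 lowest members. GINS2 (chr16:85676198-85690073) had 723, 439, 323 and 34 counts. Its log2 ratio after si-LINC00461 was −3.04 (interval −3.62 to −2.55), an 8.24-fold lower level. CDC45 (chr22:19479459-19520612) had 603, 383, 331 and 42 counts and a log2 ratio of −2.78 (interval −3.29 to −2.33). MCM10 (chr10:13161554-13211104) had 776, 520, 239 and 34 counts and a log2 ratio of −2.61 (interval −3.19 to −2.10). All 3 were lowest in U87MG si-LINC00461, at 1.91 to 2.36 CPM.

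GINS3 stood apart from its partners in the 4-protein GINS complex. It had 996, 685, 213 and 172 counts, and its log2 ratio after si-LINC00461 was −0.12 with an interval from −0.42 to 0.18. GINS1 had 505, 340, 167 and 28 counts (−2.37) and GINS4 had 478, 314, 353 and 102 (−1.60), so that both were past 2-fold. Per kilobase, GINS3 was at 6.15 and 5.60 CPM with si-NC and si-LINC00461 in U87MG, while GINS2 was at 6.03 and 0.716. After si-LINC00461 the highest of CDC45 and the 4 GINS genes (GINS3) was 11.6 times the lowest (GINS1), against 3.11 times in U87MG si-NC. With the union of exons these ratios were 4.90 and 2.83. The highest over the lowest of these genes in R-U87MG si-NC was 4.63 per kilobase of transcript and 2.54 with the union of exons. MCM8, a relative of the ring with a role in recombination, had 1535, 922, 445 and 211 counts (log2 ratio −0.89). The kinase CDC7 had 370, 233, 174 and 73 counts (log2 ratio −1.06) and its activator DBF4 had 1009, 607, 403 and 129 (log2 ratio −1.45).

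**Figure D2:**
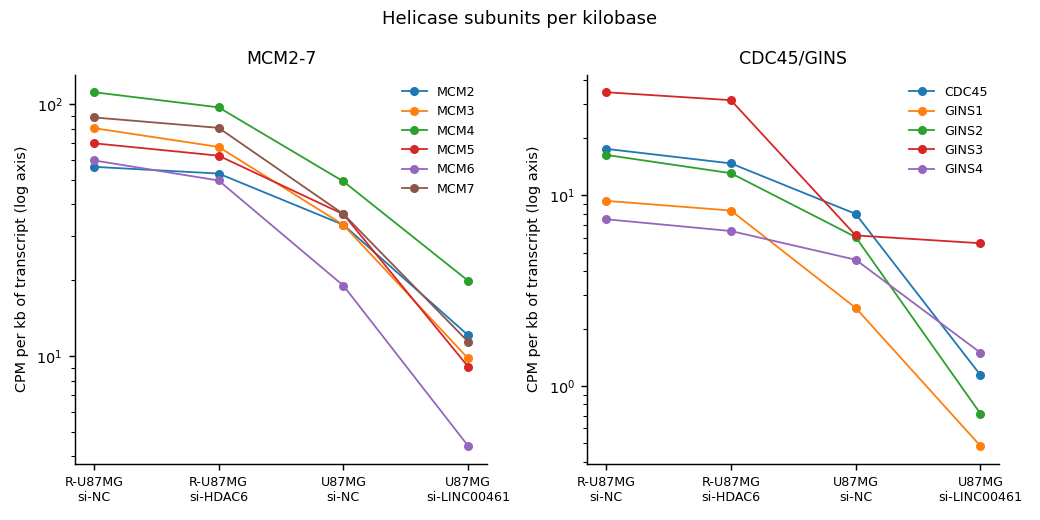
Levels of the MCM2-7 ring (left) and of CDC45 and the GINS subunits (right) in the 4 libraries, in CPM per kilobase of transcript on a log axis, with 1 point per library and lines joining the points of a gene. At this transcript length the subunits lie farther apart after si-LINC00461 than in U87MG si-NC. MCM6 (4.40) and GINS1 (0.485) are lowest there, and GINS3 keeps a level of 5.60.

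Among the polymerase α-primase subunits 3 passed 2-fold, and POLA2 lay just short of it. PRIM1, the catalytic primase, had 424, 248, 135 and 40 counts (log2 ratio −1.56 after si-LINC00461). POLA2 had 857, 528, 456 and 201 counts (log2 ratio −0.99). The catalytic polymerase subunit POLA1 had 661, 414, 368 and 159 (log2 ratio −1.02), and the primase partner PRIM2 had 559, 319, 292 and 120 (log2 ratio −1.09). All 4 were highest in R-U87MG si-NC and lowest in U87MG si-LINC00461. PRIM2 overlaps the annotated gene FO680682.1 on the same strand and PRIM1 overlaps NACA, so their counts could depend on how shared fragments were divided.

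The polymerase δ subunits moved unequally. The catalytic subunit POLD1 had 956, 763, 809 and 308 counts (log2 ratio −1.20 after si-LINC00461). The accessory subunits were at −0.43 (POLD2), −0.47 (POLD3) and 0.06 (POLD4). POLD4 had 759, 683, 1005 and 921 counts. It was the member whose deposited values were not whole fragments in all libraries, and it overlaps another annotated gene on the same strand. For polymerase ε, the catalytic POLE had 1862, 1408, 1519 and 730 counts (log2 ratio −0.87). POLE2 had 200, 186, 71 and 17 counts (log2 ratio −1.84). The interval of POLE2, from −2.73 to −1.10, was the widest of the 45.

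The sliding clamp PCNA had 3891, 2469, 1157 and 528 counts, and its log2 ratio after si-LINC00461 was −0.94 (interval −1.10 to −0.79), just short of 2-fold. In the clamp loader, RFC3 was lowest with 567, 336, 177 and 39 counts (log2 ratio −1.98). The large subunit RFC1 was least lowered with 2262, 1395, 1773 and 1174 counts (log2 ratio −0.41). RFC4 had 516, 389, 228 and 81 counts (log2 ratio −1.30). RFC5 was at −0.97 and RFC2 at −0.51. Of the polymerase, clamp and loader genes just inside and just outside the threshold, POLA1 (−1.02) was nearest inside it and POLA2 (−0.99) nearest outside.

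RPA, which also serves repair, was the complex with the least change. RPA1 had 1518, 1212, 1379 and 1444 counts (log2 ratio 0.25 after si-LINC00461, interval 0.15 to 0.36). RPA2 had 919 and 834 counts in U87MG si-NC and si-LINC00461 (log2 ratio 0.05). The smallest subunit RPA3 had 267, 164, 198 and 108 counts (log2 ratio −0.68, interval −1.04 to −0.34). Both Okazaki fragment enzymes were past 2-fold. The flap nuclease FEN1 had 2477, 1720, 1479 and 538 counts (log2 ratio −1.27) and the ligase LIG1 had 521, 368, 446 and 139 (log2 ratio −1.49). FEN1 overlaps FADS2 on the same strand.

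By complex, the median log2 ratios after si-LINC00461 were −2.38 for the licensing genes CDC6, CDT1 and GMNN, −2.37 for CDC45 and GINS and −1.71 for the MCM2-7 ring. They were −1.38 for the Okazaki enzymes, −1.26 for CDC7 and DBF4, and −1.06 for polymerase α-primase. For POLE and POLE2, the 2 members from polymerase ε, the median was −1.36. The other polymerase ε subunits, POLE3 and POLE4, are not members and were at 0.36 and −0.33. The remaining complexes were at −0.97 (RFC), −0.45 (polymerase δ), −0.21 (ORC) and 0.05 (RPA). No order between neighbouring complexes was tested.

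**Figure D3:**
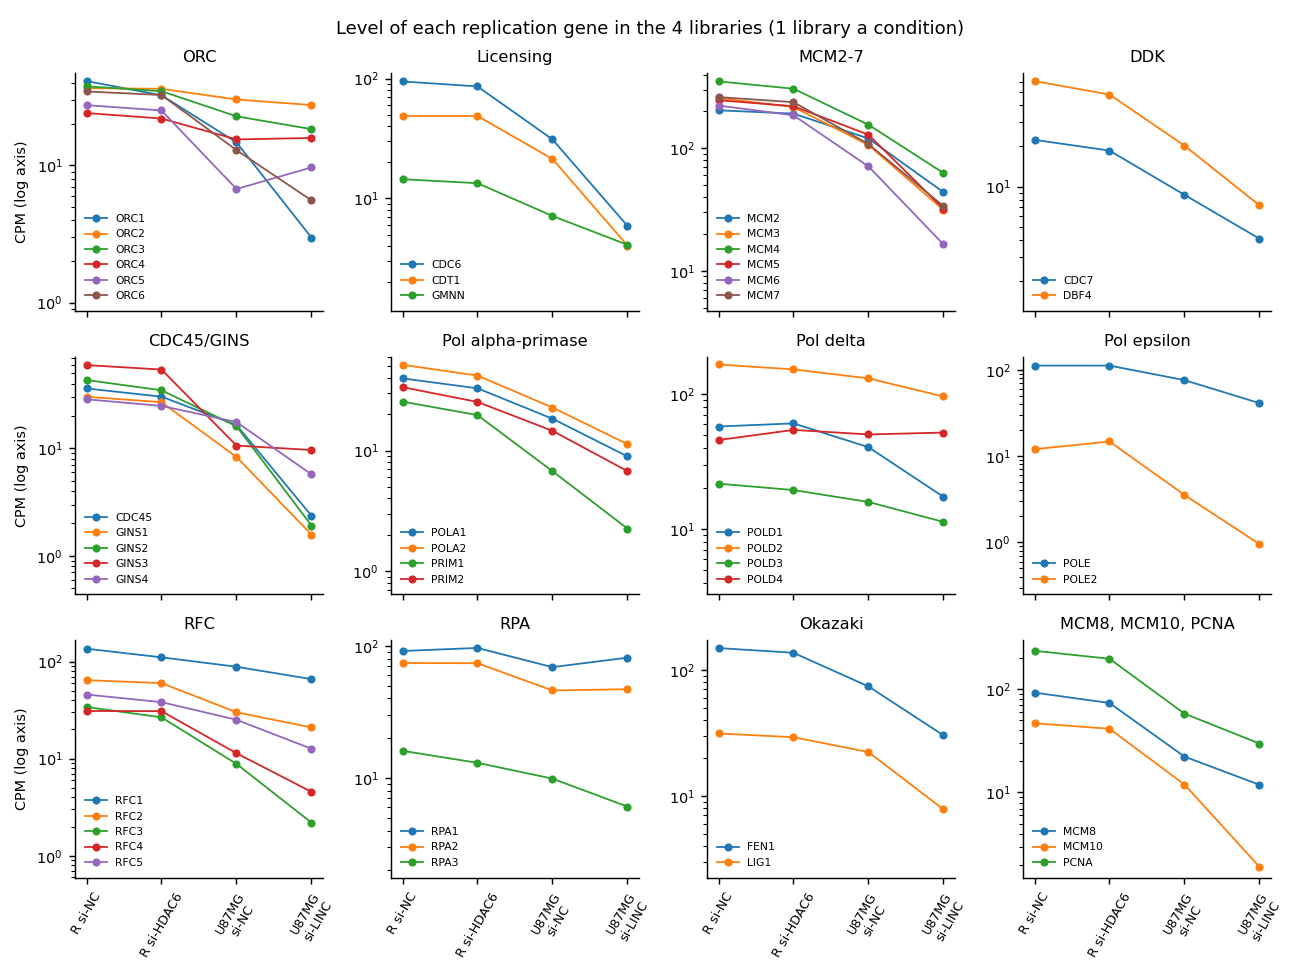
CPM (log axis) of every member in the 4 libraries, with 1 panel per complex (MCM8, MCM10 and PCNA share a panel), 1 point per library and lines joining the points of a gene. Most lines descend from R-U87MG si-NC to U87MG si-LINC00461; ORC5, GINS3, POLD4 and RPA1 are among those without a steep last step.

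Members with and without the E2F motif overlapped in their ratios. MCM4, MCM5, GINS4, POLD3, RPA2 and RPA3 had no window and are in neither group. After si-LINC00461 the median log2 ratio was −1.47 for the 20 members with the motif, of which 13 were at least 2-fold lower, and −1.09 for the 19 without it, of which 10 were. CDC45, MCM10 and ORC1 had none of the 4 letter strings in their windows and were among the lowest, whereas ORC3 and GINS3 had one and were at −0.30 and −0.12. That a window lacks these letters says nothing of whether E2F binds there.

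Several members share a start region with a gene on the other strand, which gave a comparison within the same stretch of the genome. A protein-coding neighbour starting within 1000 bases on the opposite strand was annotated for 18 members and was measured for 16. After si-LINC00461, 9 of these 16 members and 1 of the 16 neighbours were at least 2-fold lower, and the median log2 ratios were −1.23 and −0.21. Among all genes measured 8.17% were that much lower, a share to which the neighbours were near. MCM4 and the DNA repair kinase gene PRKDC start 2 bases apart, and their log2 ratios were −1.30 and −0.29. CDC45 was at −2.78 and UFD1 at −0.43, and ORC1 at −2.28 and PRPF38A at −0.24. The neighbour of FEN1, TMEM258, was at 0.98. The exception was PXMP2, at −1.37 (113 and 38 counts), whose partner POLE was at −0.87.

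**Figure D4:**
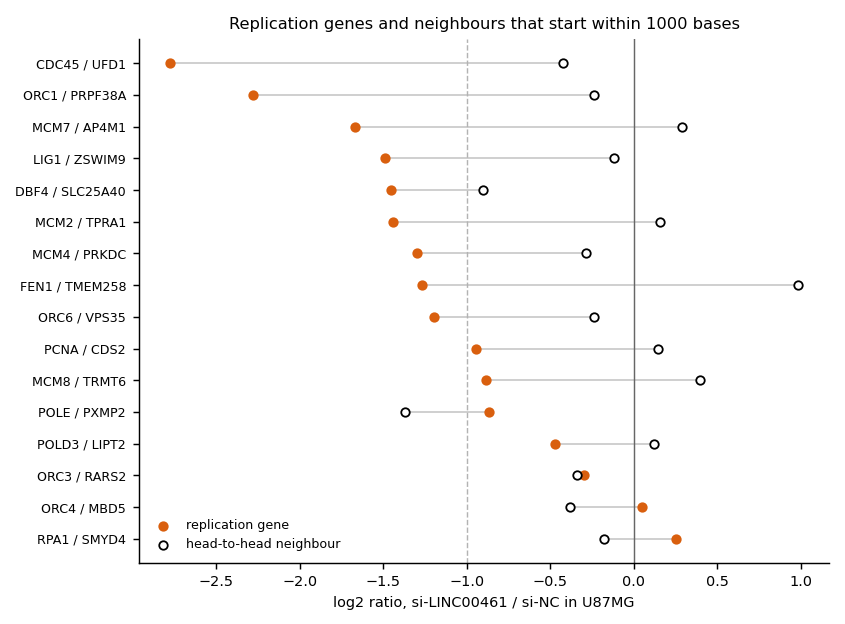
Log2 ratios after si-LINC00461 (x axis) of 16 replication genes (filled points) and of the protein-coding gene that starts within 1000 bases on the other strand (open points), with 1 pair per row and a dashed line at 2-fold lower. The open points lie between −1.37 and 0.98, and that of PXMP2 alone is past the dashed line.

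The 3′ UTRs of the members were also searched for the seed match of miR-485-3p, a microRNA that the study linked to LINC00461. Its mature sequence from RefSeq (chr14:101055464-101055485, plus strand, GRCh38.p14) is shown with the seed, bases 2 to 8, in capitals, followed by the matching 3′ UTR sites of the lowest and the next lowest member that carry one, in the last exon of each gene (GENCODE 29, capitals mark the match at the coordinates given).
hsa-miR-485-3p: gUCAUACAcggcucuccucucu
MCM10, chr10:13210875-13210881, plus strand: aacagctatgTGTATGAaataggtcac
MCM6, chr2:135839700-135839706, minus strand: ggaatcaactTGTATGAaaccttgtca

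The 7-base match TGTATGA was found in a 3′ UTR of 6 of the 45 members (13.3%), against 15.6% of 11783 measured genes with an annotated 3′ UTR. The 6 were MCM6, MCM8, MCM10, GINS4, POLD3 and RFC5. Their median log2 ratio after si-LINC00461 was −1.29, with 3 of the 6 at least 2-fold lower, and that of the 39 members without a match was −1.20, with 23 at least 2-fold lower. A letter match is not a measured site. The shares above were not adjusted for 3′ UTR length, whose median was 980 bases in the members and 1442 in the 11783 genes. Mature microRNA levels were not analysed here.

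Of 33 other replication genes (origin firing, fork protection, clamp exchange, chromatin assembly and topoisomerases), 14 were at least 2-fold lower after si-LINC00461 and 0 higher, with a median log2 ratio of −0.89. For this and the lists below, the shares of all genes measured were 8.17% that much lower and 5.42% that much higher. The lowest were TOP2A, which untangles sister DNA (3772 and 522 counts, −2.66), UHRF1, which couples replication to DNA methylation (1421 and 270, −2.21), and the PCNA-binding PCLAF (115 and 23, −2.11). The highest were TOP1 (0.50), the clamp loader factor CHTF8 (0.48) and POLE3 (0.36). The 5 chromatin genes of this list (CHAF1A, CHAF1B, ASF1B, UHRF1 and DNMT1) were all at least 2-fold lower. For 12 deoxynucleotide synthesis genes the median was −0.99, with 6 at least 2-fold lower, the lowest being TYMS at −3.38. For 22 measured kinetochore and checkpoint genes it was −2.10, with 16 at least 2-fold lower.

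The transcription factors were not as uniformly lower. Of 12 measured E2F and RB family genes, 2 (E2F8 at −1.76 and RBL1 at −1.24) were at least 2-fold lower, against 8.17% of all genes. At least 2-fold higher were 0, against 5.42%, and the median was −0.19. The interval lay wholly below 0 for 6 (33.4% of all genes), which included RBL2 (−0.998) and TFDP1 (−0.81). It lay wholly above 0 for 5 (33.1% of all genes), namely E2F5 (0.86), E2F3 (0.71), E2F6 (0.65), TFDP2 (0.51) and E2F4 (0.48). E2F1 had 2031, 1502, 577 and 254 counts (−0.99 after si-LINC00461). E2F7, a repressor of the family, had 11 and 21 counts in the R-U87MG libraries and 1849 and 1302 in the U87MG libraries (−0.32 after si-LINC00461).

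The genes outside the members whose profile was nearest over both siRNA comparisons were sought among 9418 genes with a mean of at least 10 CPM. For MCM10 they were CDCA8, GTSE1 and C12orf75, with summed differences of 0.050, 0.072 and 0.094 on the log2 scale. For GINS2 they were SGO1, HJURP and EVI2A, with 0.088, 0.101 and 0.115. CDCA8, SGO1 and HJURP encode proteins of the centromere. With only 2 ratios per gene, this likeness is a description.

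After si-HDAC6 in R-U87MG, the replication genes lay slightly lower and none reached 2-fold. Of the 45, 0 were at least 2-fold lower (0.747% of 13120 genes measured) and 0 at least 2-fold higher (0.694%). The ratio was below 0 for 41 members, against 51.1% of all genes. The interval lay wholly below 0 for 27 members, against 16.4% of all genes, and wholly above 0 for 1, POLD4, against 13.8%. The median log2 ratio was −0.17, against −0.01 for all genes, and the members ran from −0.42 (PRIM2) to 0.29 (POLE2). Their summed level was 3799 CPM in R-U87MG si-NC and 3390 in R-U87MG si-HDAC6.

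The complexes of 2 or more subunits with every interval below 0 after si-HDAC6 were the MCM2-7 ring (−0.28 for MCM6 to −0.10 for MCM2), CDC7 with DBF4 (−0.27 and −0.34) and polymerase α-primase. In the last the values ran from −0.42 (PRIM2) to −0.28 (POLA1). Median log2 ratios of the complexes ran from −0.34 (polymerase α-primase) to 0.14 (polymerase ε, from POLE and POLE2 only). POLE was at −0.01 and POLE2 at 0.29, the latter with 200 and 186 counts and an interval from −0.01 to 0.58. The polymerase ε subunits outside the members, POLE3 and POLE4, were at −0.02 and 0.20. CDT1 was at −0.01 (813 and 615 counts, from libraries of different depth), whereas CDC6 was at −0.15.

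The 2 knockdowns shared no library. An interval wholly below 0 in both was found for 26 members, which is 26 of the 27 after si-HDAC6 and 26 of the 38 after si-LINC00461. Among 12413 genes measured in both, 8.69% had this. MCM10 was at −0.19 (interval −0.35 to −0.02) after si-HDAC6 and at −2.61 after si-LINC00461, and GINS2 at −0.33 (interval −0.50 to −0.16) and −3.04. The knockdowns were in different lines, one of them kept in TMZ. The paper lists a single targeted sequence for LINC00461 and several for HDAC6 and for the non-targeting control. The target, the siRNA sequences and the line therefore cannot be told apart in the difference between these ratios. An effect of the si-LINC00461 sequence itself also cannot be told from the loss of LINC00461.

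**Figure D5:**
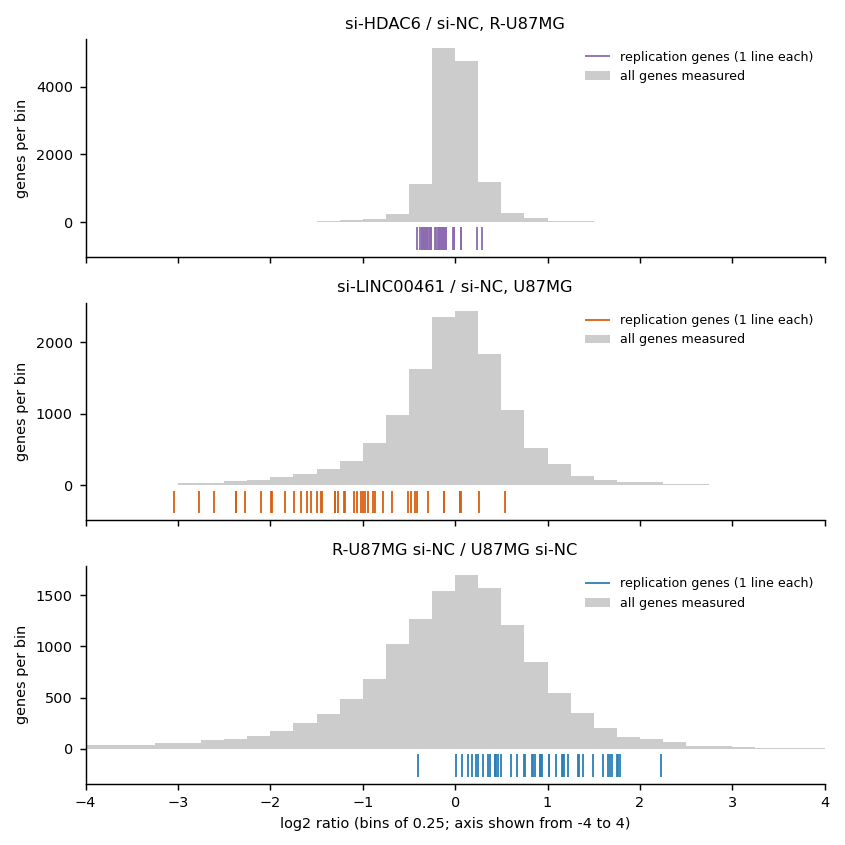
Distribution of log2 ratios of all genes measured (grey bars, genes per bin of 0.25) with the 45 replication genes as coloured lines below, for the 3 comparisons. The coloured lines lie left of the grey peak after si-LINC00461 (median −1.20), slightly left after si-HDAC6 (−0.17) and right of it in R-U87MG against U87MG (0.91).

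Between the control libraries, the replication genes were higher in R-U87MG than in U87MG. Of the 45, 19 were at least 2-fold higher, against 11.2% of 13349 genes measured, and 0 at least 2-fold lower, against 15.0%. The interval lay wholly above 0 for 42 members (39.4% of all genes) and wholly below 0 for 1, POLD4 (38.8%). An interval wholly beyond 2-fold higher was found for 13 (6.34% of all genes). The median log2 ratio was 0.91, against 0.02 for all genes. At a threshold of 1.5-fold, 30 members were higher, against 23.1% of all genes. Scaled by library totals the medians were 1.18 and 0.28, since a scaling shifts every gene of a pair alike. Among the marker genes, ALB had 18 counts in R-U87MG against 272 in U87MG, PECAM1 27 against 52 and FN1 32965 against 92828 (log2 ratio −1.49). Both siRNA targets were also lower in R-U87MG. LINC00461 had 154 against 363 counts (log2 ratio −1.23) and HDAC6 had 296 against 649 (log2 ratio −1.13). Whether these differences bear on the replication genes was not tested. Each of these libraries is also the control of an siRNA comparison, and the authors scaled the 2 pairs of files separately. The line, its TMZ and any difference in handling cannot be told apart here.

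The highest ratio belonged to GINS3, with 996 against 213 counts (log2 ratio 2.23, interval 2.01 to 2.45). It was followed by MCM8 (1535 and 445 counts, 1.79), ORC5 (458 and 135 counts, 1.76) and PCNA (3891 and 1157 counts, 1.75). The neighbour that starts beside MCM8 on the other strand, TRMT6, was at 2.29, and that of PCNA, CDS2, at 0.17. GINS3 and ORC5 were at −0.12 and 0.54 after si-LINC00461, a comparison that shares the U87MG si-NC library with this one. In the MCM2-7 ring the log2 ratios ran from 0.50 (MCM2) to 1.39 (MCM6), and in polymerase δ from −0.40 (POLD4) to 0.24 (POLD1). The medians of CDC7 with DBF4 (1.21), CDC45 and GINS (1.16) and the ring (0.96) stood above those of RPA (0.43) and polymerase δ (0.13). The catalytic POLE was at 0.30 and POLE2 at 1.49.

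Over all 4 libraries, the CPM of 38 of the 45 genes fell in the order R-U87MG si-NC, R-U87MG si-HDAC6, U87MG si-NC, U87MG si-LINC00461, an order that 18.0% of 12413 genes measured had. In 41 genes R-U87MG si-NC was highest, and in 40 genes U87MG si-LINC00461 was lowest. The shares of all genes for these counts were not computed. CPM is over library totals, at which the median log2 ratio of all genes was 0.28 in R-U87MG si-NC against U87MG si-NC. POLD4 was lowest in R-U87MG si-NC. Its levels were 45.6, 54.2, 50.2 and 51.8 CPM in the order just given.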

How the data were processed

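RNA-seq was performed on 4 libraries, 1 per condition, made with a strand-specific library kit. The submitters' processing notes name bcl2fastq, Trimmomatic 0.36, HISAT2 and GRCh38.p13. The counting program is not given in the sources used here. The authors deposited estimated counts for Ensembl genes. In each library they carry 1 multiplier (0.869, 1.15, 0.939 and 1.06), by which each pair had been scaled. Each value was divided by its multiplier and rounded to whole fragments, and 94.3 to 94.6% of the values above 0 lay within 0.02 of a whole number, with a small allowance for the rounding of the deposited digits. These recovered counts were what the design foresaw and what edgeR takes.

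Libraries were scaled pairwise by TMM (edgeR 4.0.16, R 4.3.3). Log2 ratios were taken of counts plus 0.5 over effective library sizes, CPM over library totals, and exact 95% intervals with scipy 1.17.1. Genes under a mean of 1 CPM were left out. Alternatives were DESeq2 1.42.0 size factors, library totals, a pseudocount of 5, a 1.5-fold threshold, no filter on low counts, the values as deposited, genes with whole fragment numbers only, the mean in place of the median, thinning to 12596072 counts and the union of exons as length. The ratios and intervals were tested on simulated data with counting error only, scaled by library totals. That test did not cover TMM scaling or spread between cultures.

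The 45 members, the gene lists and the tests were chosen with earlier results of these data known. By rule, counts of every library were given for members past 2-fold after an siRNA and for the lowest and highest of each complex of 3 or more, and from the other replication genes the 3 lowest and 3 highest were named. E2F, deoxynucleotide, kinetochore and neighbouring genes were named after their values were seen. Gene symbols and 3′ UTRs came from GENCODE 29, promoters and the microRNA from RefSeq.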

Additional observations from a re-analysis of the deposited data

How the results depend on the processing

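With 1 library per condition no spread between cultures was measured, and no replicate could be left out. No paired analysis was possible because each group held 1 library. Scaling by library totals moved the median log2 ratio of the replication genes in R-U87MG si-NC against U87MG si-NC from 0.91 to 1.18, together with a shift of 0.26 in the median of all genes. A threshold of 1.5-fold instead of 2-fold gave 30 instead of 19 members higher there, against 23.1% and 11.2% of all genes. The other 73 of 75 recomputed counts and medians kept their direction, the counts within 1.5 times. Of 762 recomputed ratios of single members, 38 moved beyond their counting interval, all under library totals in the same comparison. The sign differed in 7, with thinned libraries or the values as deposited, for CDT1 and POLE after si-HDAC6, ORC4 and POLD4 after si-LINC00461 and ORC2 between the control libraries, whose counting intervals all included 0. Low counts, such as 17 for POLE2 and 28 for GINS1 after si-LINC00461, limit how finely the lowest members can be ranked. Ratios per kilobase depended on the transcript length.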
